A study of Mus musculus with 23 samples.

Results

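The genes of mitochondrial protein import were followed in mouse embryonic stem cells (ESCs) that lose the zinc finger transcription factor Zbtb11, and at the sites where Zbtb11 sits on chromatin. The members were all genes of the GENCODE annotation used in the count files whose symbol is Timm or Tomm followed by a number, together with *Dnajc19*, *Grpel1*, *Pam16*, *Samm50*, *Chchd4*, *Gfer*, *Mtx1* and *Mtx2*. This rule used no measured value and gave 30 of the 37310 annotated genes, of which 29 passed the filter on low counts (more than 1 CPM, a gene's count scaled to library size, in at least 3 libraries). RNA was measured in 3 groups of 3 libraries, all derived from the E14 line and collected after 48 h. In the *Zbtb11* KO group, *Zbtb11* lox/lox *Rosa26* ERt2-Cre cells, a line cloned after CRISPR editing in which exon 3 of *Zbtb11* is flanked by loxP sites, received 250 nM 4-hydroxytamoxifen (4OHT), which activates the Cre recombinase. The EtOH control was the same line given only the carrier ethanol. The 4OHT control was *Zbtb11* WT/WT *Rosa26* WT cells with the same dose of 4OHT, so that it differs from the EtOH control both in the line and in the drug, and these cannot be told apart. Chromatin was measured by ChIP-seq in 4 libraries with an antibody to Zbtb11 (*Zbtb11* WT/WT), in 3 libraries with the FLAG antibody in *Zbtb11* FLAG/FLAG cells, where the native protein is FLAG-tagged, and in 2 FLAG control libraries from cells without the tag.

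Nearly all mitochondrial proteins are encoded in the nucleus, made in the cytosol and carried into the organelle. The TOM complex of the outer membrane is the common gate. Behind it, the SAM complex inserts beta-barrel proteins into the outer membrane, the small TIM chaperones guide hydrophobic proteins across the intermembrane space, the TIM22 and TIM23 translocases serve the inner membrane and the matrix, and a motor on the matrix side pulls proteins with a cleavable presequence through TIM23. The machinery is needed in every cell type, since the respiratory chain, the mitochondrial ribosome and the import complexes themselves depend on it.

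The libraries held 14301457 to 23876604 counts on genes, of which the 30 members together took 0.163 to 0.21%. Replicate 1 was the smallest library in each of the 3 groups. The annotation has no gene named *Zbtb11*, so the loss of its RNA could not be followed by symbol. ESC markers were high in every library (9 of 9 matched markers above 1 CPM, summed level 4496 to 5410 CPM), whereas the summed trophectoderm, mesoderm, primitive endoderm and fibroblast markers reached 8.1, 5.24, 16.7 and 26.7 CPM at most. The neuroectoderm list summed to 95.4 to 168 CPM. No 2 libraries held identical counts.

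Zbtb11 was found at the promoters of 9 to 16 of the 30 import genes. The count depended on the promoter limits and on the use of consensus windows or full peak lists. A window of the coverage table (one of 7500 consensus peaks with reads counted in each library) overlapped the promoter, taken as 2 kb upstream to 500 bases downstream of the gene start, at 10 of 30 members (33.3%), against 28.1% of the 14346 tested genes. The same count was 42 of 75 for genes of the mitochondrial ribosome and 13 of 38 for complex I subunits. Windows whose mean antibody coverage lay above a limit of 309 (the upper quartile plus 1.5 interquartile ranges of all windows) were found at 2 members, *Timm9* and *Tomm34*, against 5.69% of tested genes, 18 of 75 mitochondrial ribosome genes and 7 of 38 complex I genes. In the full peak lists, which hold positions without heights, 15 members had a Zbtb11 peak (33.0% of tested genes) and 16 had a FLAG-Zbtb11 peak (33.5% of tested genes). None of the 30 promoters held a peak of the FLAG control, where 31 of the 14346 tested genes did.

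*Timm9*, which encodes a small chaperone that works with Timm10 in the intermembrane space, had the strongest window of the group. Its window on chromosome 12 (mm9, chr12:72237446-72238646, centre at -384 bases from the start of this minus-strand gene at chr12:72224160-72237662) had antibody coverage of 554, 726, 590 and 917 and FLAG coverage of 695, 769 and 468. With a mean of 697 ± 165 (SD, n = 4) it ranked 200 of 7500 by antibody and 139 by FLAG. The start of *2700049A03Rik* on the opposite strand lies 173 bases away in the same window, so the coverage cannot be given to either gene alone.

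*Tomm34* encodes a cytosolic co-chaperone that binds Hsp70 and Hsp90 and takes part in the delivery of precursors. The window at its start (chr2:163895834-163897034, centre 471 bases downstream, gene at chr2:163879276-163896905 on the minus strand) had antibody coverage of 359, 375, 385 and 389, a mean of 377 ± 13.2 (SD, n = 4) and rank 678. Its FLAG coverage was lower in every library, at 226, 227 and 241, which gave rank 971 and lay under the limit of 260 computed from the FLAG libraries. The start of *Stk4* lies in the same window, 847 bases away, so here too the coverage cannot be given to either gene alone.

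The other 8 windows were weaker and none exceeded the limit. *Mtx2*, a partner of the SAM complex, had antibody coverage of 186, 181, 188 and 185 at chr2:74663259-74664459 (rank 1473), and FLAG coverage of 266, 249 and 216. *Tomm22*, the central receptor of the TOM complex, had antibody coverage of 146, 143, 166 and 211 at chr15:79500717-79501917 (rank 1653), and FLAG coverage of 196, 224 and 174. *Timm23*, the pore of the presequence translocase, had antibody coverage of 93.4, 85, 116 and 124 at chr14:33014660-33015860 (rank 2612), and FLAG coverage of 150.4, 139 and 171. That window also holds the start of *Parg*, 51 bases away on the other strand. *Tomm6* (67.8 ± 15.8, rank 3915), *Tomm5* (65.1 ± 18.3, rank 4060), both small subunits of TOM, *Tomm70a*, a receptor for carrier precursors (57.6 ± 23.9, rank 4456), and *Timm8a2*, a small TIM (29 ± 7.43, rank 6534), had mean antibody coverage (± SD, n = 4) below the median of all windows, 71.3. The window of *Mtx1* (110 ± 37.7, SD, n = 4, rank 2477) only touches the edge of the promoter. Its centre is at -2366 bases from the gene start and it holds the start of *Muc1*, and its FLAG coverage of 42.7, 21.9 and 24.2 was the lowest of the 10 windows by mean. The median over the members' windows was 107, that over the 3471 windows at promoters of tested genes 102.

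**Figure D1:**
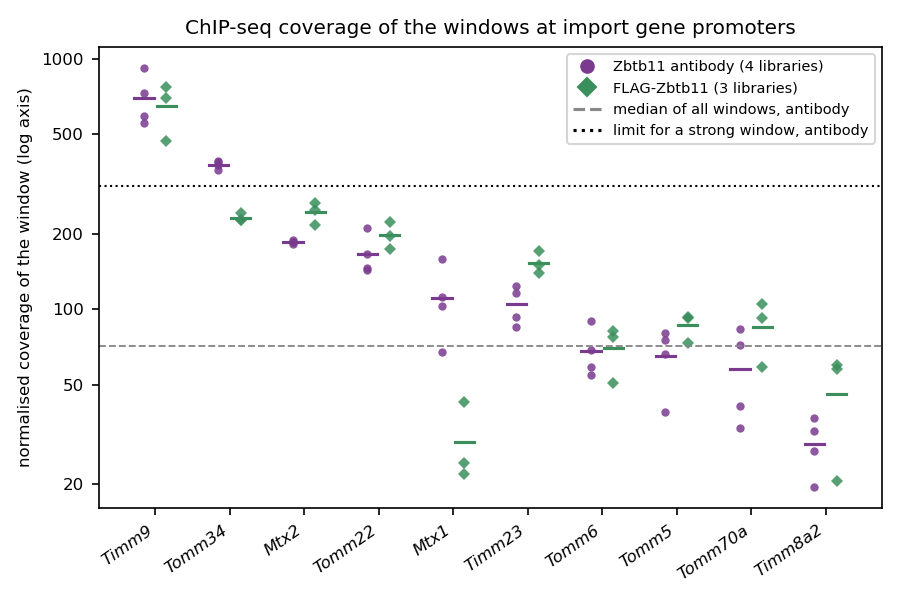
Normalised coverage of the 10 consensus windows at promoters of import genes, one point per library (log axis), with bars at the mean of the 4 antibody and of the 3 FLAG-Zbtb11 libraries. The dotted line is the antibody limit of 309 and the dashed line the antibody median of 71.3 over all 7500 windows. All antibody libraries lie above the limit for *Timm9* and *Tomm34* only.

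The promoters were searched, on both strands from 250 bases before to 50 bases after the gene start, for 3 motifs linked to nuclear genes of mitochondria. CCGGAAG, the core bound by GABP and other ETS factors, was present in 11 of 30 members (36.7%) and in 15.7% of the 14345 tested genes that could be searched. Among genes with a window it was present in 6 of 10 members and in 33.8% of 4026 tested genes, and among the 817 tested genes with a window above the limit in 44.9%. GCATGCGC, the NRF-1 core, was found in 2 members (*Timm13* and *Tomm7*) and 4.89% of tested genes, and AAGATGGC, the YY1 core, in 2 (*Timm50* and *Tomm40l*) and 4.25%. In this stretch *Timm9* held none of the 3 and *Tomm34* held 1 match to CCGGAAG. The centres of their windows, at -384 and 471 bases from the start, lie outside the stretch. The rest of these 2 windows was not searched, so a match there is not known. A match is a stretch of letters and not a shown binding site. The stretches printed here run from 120 bases before to 29 bases after the start base, 5′ to 3′ on the strand of the gene in mm9. They are shown for the members with the strongest windows and for 4 of the 5 others with a window and more than 1 match within this stretch, the remaining one being *Tomm70a*. Capitals mark CCGGAAG or its reverse complement, and the run of capitals in *Tomm22* holds overlapping matches on both strands. *Timm9*, chr12:72237633-72237782, minus strand, *Tomm34*, chr2:163896876-163897025, minus strand, *Mtx2*, chr2:74663740-74663889, plus strand, *Tomm22*, chr15:79501171-79501320, plus strand, *Timm23*, chr14:33015055-33015204, minus strand, and *Timm8a2*, chr14:122433776-122433925, plus strand:
Timm9: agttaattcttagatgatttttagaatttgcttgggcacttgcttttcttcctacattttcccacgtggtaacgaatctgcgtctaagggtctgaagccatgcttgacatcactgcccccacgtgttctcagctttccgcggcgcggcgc
Tomm34: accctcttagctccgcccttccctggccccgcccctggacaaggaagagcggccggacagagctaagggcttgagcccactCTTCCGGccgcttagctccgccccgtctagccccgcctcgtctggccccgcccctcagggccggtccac
Mtx2: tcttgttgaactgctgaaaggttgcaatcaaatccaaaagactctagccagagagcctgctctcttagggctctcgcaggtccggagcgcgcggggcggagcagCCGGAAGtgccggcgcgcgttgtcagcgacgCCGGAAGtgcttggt
Tomm22: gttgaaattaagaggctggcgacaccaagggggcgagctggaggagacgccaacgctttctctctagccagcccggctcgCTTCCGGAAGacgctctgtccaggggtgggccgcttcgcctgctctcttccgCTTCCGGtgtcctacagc
Timm23: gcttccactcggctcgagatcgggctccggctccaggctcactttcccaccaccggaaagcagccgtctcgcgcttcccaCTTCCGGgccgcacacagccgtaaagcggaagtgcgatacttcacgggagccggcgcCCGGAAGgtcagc
Timm8a2: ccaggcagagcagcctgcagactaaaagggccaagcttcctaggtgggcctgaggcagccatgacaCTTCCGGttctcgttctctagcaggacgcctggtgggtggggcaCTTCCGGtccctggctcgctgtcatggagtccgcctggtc

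In the EtOH control the import genes were expressed well above the typical gene. Per kb of annotated exon, the median of the 29 tested members in the EtOH control was 22.8 CPM, against 5.77 CPM for all tested genes, and 25 of the 29 lay above that figure. *Samm50*, the core of the SAM complex, had the highest level (117 ± 7.39 CPM per kb, SD, n = 3), followed by the presequence receptor *Tomm20* (92.3 ± 4.07) and *Tomm22* (81.3 ± 16.9). At the other end stood *Timm8a1* (4.77 ± 1.27), *Timm8a2* (3.14 ± 0.494), *Tomm6* (2.62 ± 0.602) and *Tomm40l* (1.71 ± 0.0841), a paralogue of the pore. *Tomm20l*, a paralogue of the receptor, had 0 to 5 counts per library and was not tested. Of the 29 neighbouring pairs in this order, 11 did not overlap between EtOH control libraries, among them *Samm50* and *Tomm20*, *Timm8b* and *Tomm5*, and *Tomm6* and *Tomm40l*. The order of the others is within the spread of the libraries. *Tomm40l* shares 2268 of its 3344 exon bases with *Nr1i3* on the opposite strand. The strand setting of the counting is not given, so the count of *Tomm40l* is uncertain. Other members share fewer exon bases with a gene on the opposite strand, and the same limit holds for them. Among these are *Dnajc19* (178 bases with *Fxr1*), *Timm8b* (81 with *AU019823*) and *Pam16* (74 with *Glis2*). *Tomm6* shares 859 exon bases with *Prickle4* on the same strand, and *Timm23* (99.1% of its longest transcript), *Pam16* (89.6%), *Timm17a* (86.4%), *Timm8a1* (85.5%), *Tomm5* (75.7%) and *Tomm20* (71.5%) have near-identical copies elsewhere in the genome (matches of 100 bases or more at 95% identity or above), so their counts are uncertain.

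**Figure D2:**
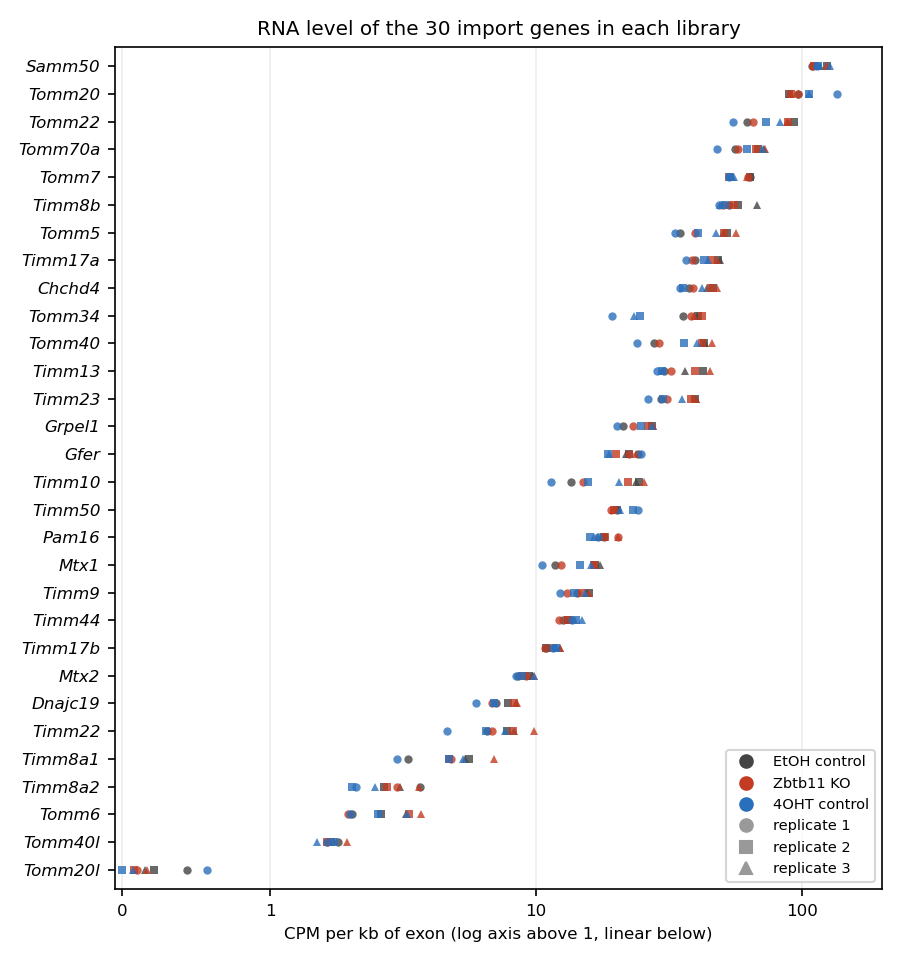
Level of each of the 30 import genes in each of the 9 RNA-seq libraries, as CPM per kb of annotated exon (log axis above 1, linear below), ordered by the mean of the EtOH control. Colours give the group and shapes the replicate number. The levels run from *Samm50* (117 in the EtOH control) to *Tomm20l* (0 to 5 counts per library).

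The comparison of the *Zbtb11* KO with the EtOH control asks what the deletion of Zbtb11 does within 1 line, where the deletion comes together with the drug. None of the 29 tested import genes passed the test (edgeR quasi-likelihood F test, Benjamini-Hochberg adjusted p over all genes under 0.05), where 0.899% of the 14346 tested genes did. None had an unadjusted p under 0.05 either, against 2.8% of all tested genes, and DESeq2 called none of them, against 1.25%. The median log2 fold change of the members was 0.01, against 0.00 for all tested genes. Of the comparison lists, 7 of 75 tested mitochondrial ribosome genes and 3 of 38 complex I genes were called, all lower in the KO.

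*Timm9*, the member with the strongest window, stood at 14.5, 16.1 and 15.8 CPM in the EtOH control, 13.3, 15.2 and 16.0 in the KO, and 12.5, 14.1 and 15.6 in the 4OHT control. The groups overlapped and the log2 fold change was -0.06 with a 95% interval from -0.33 to 0.22. Of the 252 tested genes with a promoter window at least as strong as that of *Timm9*, 20.2% were called lower in the KO. *2700049A03Rik*, which shares the window, had a log2 fold change of -0.22 (SE 0.105) and was not called.

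*Tomm34* stood at 109, 124 and 122 CPM in the EtOH control, 117, 128 and 119.9 in the KO, and 58.9, 74.7 and 71.3 in the 4OHT control. In the KO it overlapped the EtOH control, with a log2 fold change of 0.04 (interval -0.19 to 0.27), and the 4OHT control lay below both. *Mtx2* stood at 31.5, 34.7 and 35.6 CPM in the EtOH control, 33.8, 32.9 and 36.2 in the KO, and 30.8, 32.7 and 36.2 in the 4OHT control. The 3 groups overlapped, with a log2 fold change of 0.01 in the KO (interval -0.20 to 0.22). *Mtx1*, its partner, stood at 42.3, 59.6 and 62.5 CPM in the EtOH control, 44.5, 59.0 and 59.3 in the KO, and 37.7, 52.4 and 57.8 in the 4OHT control.

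The members with the largest changes in this comparison did not pass the test. *Timm8a1*, whose human counterpart is the gene of the deafness-dystonia syndrome, stood at 4.69, 7.96 and 7.68 CPM in the EtOH control, 6.81, 6.69 and 9.89 in the KO, and 4.26, 6.68 and 7.55 in the 4OHT control, and its log2 fold change of 0.20 (SE 0.276) was below its error. *Tomm6* stood at 2.29, 2.95 and 3.65 CPM in the EtOH control, 2.21, 3.78 and 4.17 in the KO, and 2.26, 2.89 and 3.69 in the 4OHT control (log2 fold change 0.19, SE 0.29). *Timm8b*, another small TIM, stood at 27.9, 30.2 and 35.8 CPM in the EtOH control, 26.7, 29.2 and 28.1 in the KO, and 25.6, 27.2 and 25.9 in the 4OHT control (log2 fold change -0.16, SE 0.104). Their libraries overlapped between the KO and the EtOH control. In the fit with the replicate number as a block, *Timm8b* had an unadjusted p of 0.0481 and an adjusted p of 0.493. Groups that did not overlap were seen for *Pam16*, a J-like subunit of the import motor, higher in the KO, and for *Timm50*, the receptor subunit of TIM23, lower (1 member in each direction, against 3.19% and 4.02% of tested genes), and neither was called.

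The intervals set how small a change could have gone unseen. All 29 members had 95% intervals within -1 and 1 on the log2 scale, and 23 within -0.5 and 0.5. The widest belonged to *Timm10* and *Tomm6*, and the counts behind the members ranged from 28 (*Timm8a2*) to 9545 (*Tomm70a*) per library. With the replicate number as a block, which narrows the intervals, 28 of 29 lay within -0.5 and 0.5 and again none was called, against 2.25% of tested genes. Without replicate 1, 2 or 3 none was called, against 1.5%, 0.0896% and 0.145%, and none with the block on replicates 2 and 3 only, against 2.27%.

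**Figure D3:**
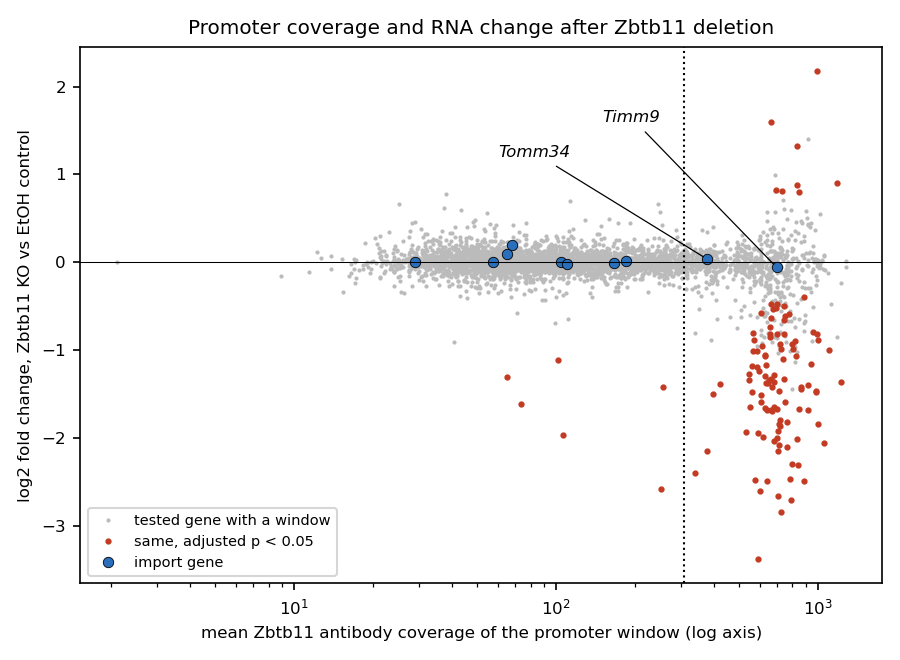
Mean Zbtb11 antibody coverage of the strongest promoter window (log axis) against the log2 fold change in the *Zbtb11* KO over the EtOH control, for the 4026 tested genes with a window. Red points passed the test, blue points are the 10 import genes with a window and the dotted line is the limit of 309. The import genes lie between -0.06 (*Timm9*) and 0.19 (*Tomm6*), and those to the right of the limit are *Timm9* and *Tomm34*.

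The 4OHT control, a control for the drug itself, was set against the EtOH control and against the *Zbtb11* KO. These 2 comparisons share the 4OHT control libraries, so they are not independent and their values are given side by side. Only *Tomm34* passed the test in either. It was lower in the 4OHT control than in the EtOH control by 0.79 on the log2 scale (log2 fold change -0.79, SE 0.103, edgeR adjusted p = 0.00506), and higher in the KO than in the 4OHT control (0.83, SE 0.103, edgeR adjusted p = 0.00171). All 3 libraries of the 4OHT control lay below all 6 of the other groups. Within replicate numbers 1, 2 and 3 the log2 ratio of 4OHT to EtOH control was -0.88, -0.73 and -0.78. The call was kept when any single library was left out. It was lost when replicate 2 or replicate 3 was left out of all groups (edgeR adjusted p = 0.285 and 0.244 against the EtOH control, 0.121 and 0.104 for the KO against the 4OHT control), with the log2 fold changes then at -0.83, -0.80, 0.86 and 0.87. In these fits no member was called, beside 13 and 24 of all genes against the EtOH control (0.0896% and 0.165%) and 82 and 114 in the other comparison (0.565% and 0.785%).

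The 1 of 29 members called stands beside 4.06% of tested genes for the 4OHT control against the EtOH control and 6.45% for the KO against the 4OHT control. The median log2 fold change of the members was -0.15 in the 4OHT control over the EtOH control and 0.14 in the KO over the 4OHT control, where the medians of all tested genes were 0.00 and 0.00. Negative values were found for 24 of 29 members in the first comparison (49.9% of tested genes) and positive values for 24 of 29 in the second. These medians moved by more than 1.5 times with single libraries. Without replicate 1 of the 4OHT control they were -0.0571 and 0.0715, and 17 of 29 members were then negative in the first comparison and 10 of 29 in the second. Without replicate 3 of the 4OHT control they were -0.25 and 0.26. The first was -0.24 without replicate 1 and -0.0886 without replicate 2 of the EtOH control, and the second was 0.22 without replicate 1 and 0.0887 without replicate 3 of the KO. Members lower in the 4OHT control than in the EtOH control within each of the 3 replicate numbers numbered 19 of 29, against 28.4% of tested genes, and those higher in the KO than in the 4OHT control 20 of 29, against 28.9%. Groups that did not overlap at all were seen in the 4OHT control against the EtOH control for 6 members that lay lower (10.5% of tested genes) and 3 that lay higher (11.2%). In the KO against the 4OHT control they were seen for 4 that lay higher (11.1%) and 2 that lay lower (11.8%).

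Replicate 1 libraries deviated from their group means together and apart from the others. Numbers 2 and 3 were less clearly separate, since these deviations correlated at up to 0.526 across them and as low as 0.43 within a number. When the number was entered as a block, 14 members passed the test in each of the 2 comparisons. The block also raised the share of all tested genes called to 33.6% and 34.9%, so that 14 of 29 (48.3%) is to be read against those figures. In the 4OHT control 13 of the 14 fell below the EtOH control and 1 rose above it. The called genes split into 2374 lower and 2442 higher over all tested genes, 25 and 4 for the mitochondrial ribosome, and 7 and 5 for complex I. In the KO 12 of the 14 lay above the 4OHT control and 2 under it. Here the split was 2418 higher and 2592 lower over all tested genes, 23 and 14 for the mitochondrial ribosome, and 5 and 6 for complex I. Without replicate 1 and without a block 4 of 29 were called in each comparison, against 17.1% and 18.7% of tested genes, and with the block on replicates 2 and 3 only 12 and 11 were called, against 27.6% and 29.5%. The ESC markers were also higher in the 4OHT control, at 5151 to 5410 CPM summed against 4582 to 5019 in the EtOH control and 4496 to 4970 in the KO. Their part in the result was not tested. In bulk RNA, a smaller share of cells with a transcript and less of it per cell cannot be told apart.

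**Figure D4:**
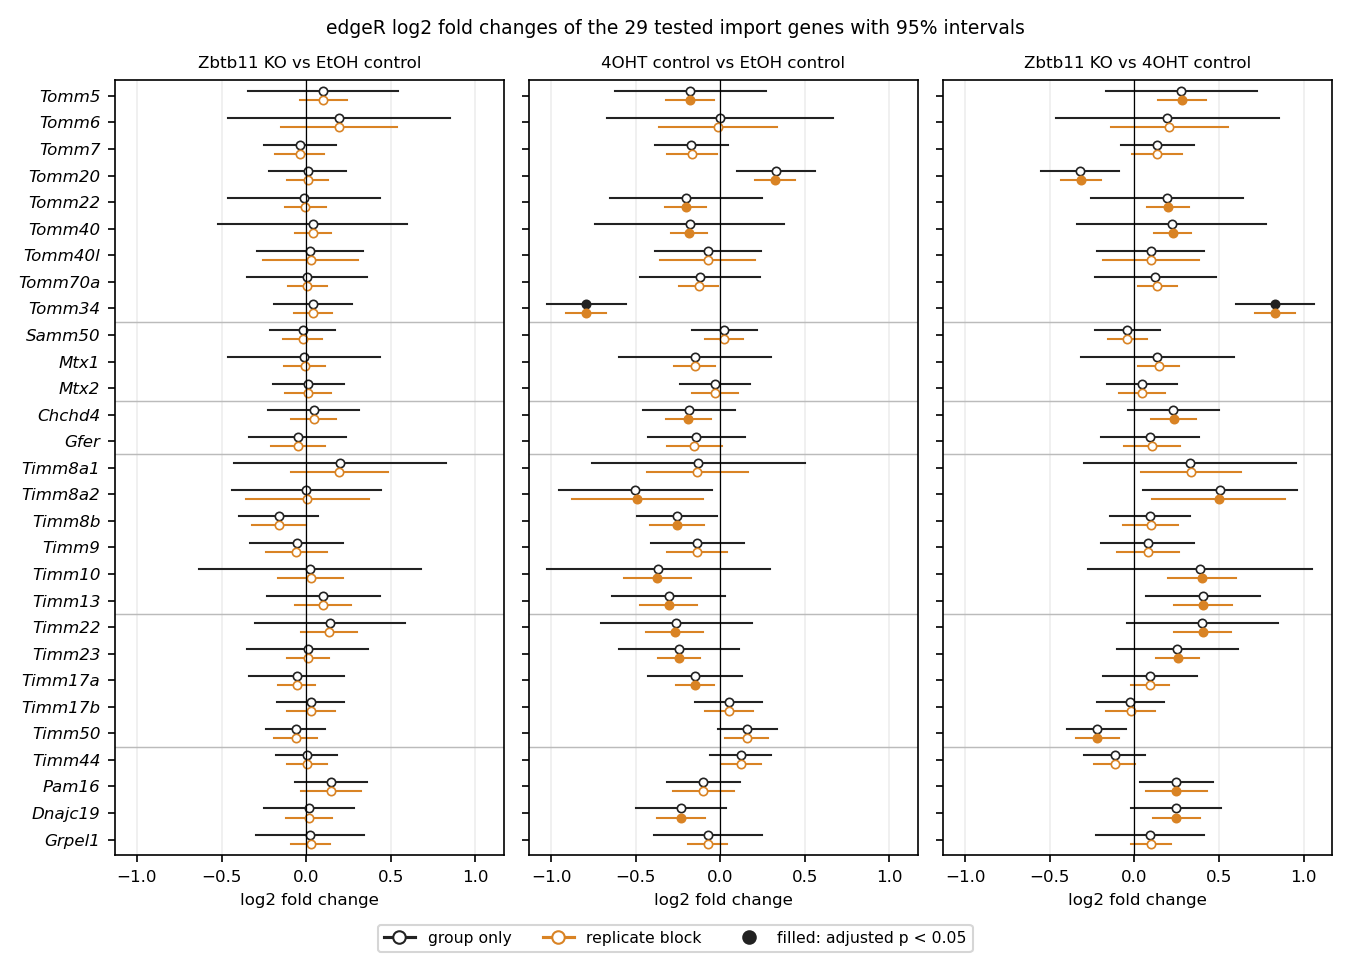
Log2 fold changes with 95% intervals from edgeR for the 29 tested import genes, grouped from top to bottom as TOM, SAM, disulfide relay, small TIM chaperones, inner membrane translocases and import motor. Black is the fit by group only and orange the fit with the replicate number as a block, and filled points passed the adjusted p threshold of 0.05. No point is filled in the KO against the EtOH control, and *Tomm34* alone is filled in black in the others.

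The TOM receptor *Tomm20* went the other way from *Tomm34*, which was grouped with the TOM genes here but encodes a cytosolic co-chaperone. It stood at 137, 126 and 127 CPM in the EtOH control, 137, 128 and 128 in the KO, and 190.4, 150.1 and 149.9 in the 4OHT control. Every 4OHT control library lay above every other library, and the log2 fold change was 0.33 over the EtOH control (SE 0.102, edgeR adjusted p = 0.119, and 0.000205 with the block). For the KO over the 4OHT control it was -0.32 (SE 0.102, edgeR adjusted p = 0.108, and 0.000234 with the block). DESeq2 called it in both comparisons, with an adjusted p of 0.0447 and 0.0459, where it called 8.27% and 10.2% of tested genes.

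*Tomm40*, the pore of the outer membrane, stood at 118, 182 and 183 CPM in the EtOH control, 123, 179 and 194 in the KO, and 102, 153 and 171 in the 4OHT control. Replicate 1 was far below the other libraries in each group, the groups overlapped, and only the block gave a call (log2 fold change -0.19 for the 4OHT control, edgeR adjusted p = 0.00852, and 0.23 for the KO, edgeR adjusted p = 0.00192). *Tomm22* had the same arrangement of libraries, at 69.0, 104 and 98.5 CPM in the EtOH control, 73.0, 98.7 and 97.7 in the KO, and 61.5, 81.6 and 92.3 in the 4OHT control (block values -0.20 and 0.20, edgeR adjusted p = 0.0108 and 0.0125). *Tomm5*, at 30.2, 45.3 and 43.9 CPM in the EtOH control, 34.4, 44.3 and 49.2 in the KO, and 28.8, 35.4 and 41.4 in the 4OHT control, passed with the block at an edgeR adjusted p of 0.0495 and 0.00323. *Tomm70a* stood at 334, 408 and 429 CPM in the EtOH control, 343, 399.7 and 432 in the KO, and 285, 369 and 424 in the 4OHT control and was not called in any of these fits. *Tomm7* and *Tomm40l*, not called either, had log2 fold changes of -0.17 and -0.07 in the 4OHT control.

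The small TIM chaperones went the way of most members, of which 24 of 29 were negative in the 4OHT control against the EtOH control. In the KO against the 4OHT control, 5 of 29 members were negative. These 2 comparisons share the 4OHT control libraries. The small TIM chaperones had negative values in the first (6 of 6, median -0.28) and positive values in the second (6 of 6, median 0.36). *Timm8a2* had the largest changes of these, at 3.34, 2.44 and 2.82 CPM in the EtOH control, 2.74, 2.52 and 3.33 in the KO, and 1.92, 1.85 and 2.27 in the 4OHT control, with no overlap between the 4OHT control and the other groups. With only 28 to 67 counts per library its log2 fold changes of -0.50 (SE 0.201) and 0.50 (SE 0.202) had an edgeR adjusted p of 0.228 and 0.207, and of 0.0481 and 0.0465 with the block. *Timm10*, the partner of Timm9, stood at 11, 19.8 and 19.3 CPM in the EtOH control, 12.3, 18.0 and 20.8 in the KO, and 9.27, 12.8 and 16.7 in the 4OHT control. Its replicate 1 libraries were the lowest in each group, and the block gave -0.37 and 0.40 (edgeR adjusted p = 0.00497 and 0.00291). *Timm13*, the partner of Timm8, stood at 37.0, 51.9 and 44.6 CPM in the EtOH control, 39.4, 48.6 and 55.2 in the KO, and 35.1, 36.5 and 36.6 in the 4OHT control. The 4OHT control lay below all other libraries, with block values of -0.30 and 0.41 (edgeR adjusted p = 0.00631 and 0.000568). *Timm8b* was called with the block against the EtOH control only (-0.26, edgeR adjusted p = 0.0139).

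For the translocases of the inner membrane, *Timm22*, the pore of the carrier translocase, stood at 20.8, 24.7 and 26.2 CPM in the EtOH control, 21.8, 26.1 and 31.3 in the KO, and 14.7, 20.6 and 24.4 in the 4OHT control. With the block it was lower in the 4OHT control (-0.27, edgeR adjusted p = 0.0141) and higher in the KO than there (0.40, edgeR adjusted p = 0.00057). *Timm23* stood at 52.5, 70.5 and 71.2 CPM in the EtOH control, 55.6, 68.4 and 71.6 in the KO, and 46.9, 53.6 and 63.3 in the 4OHT control (block values -0.24 and 0.26, edgeR adjusted p = 0.00365 and 0.00241). *Timm17a*, its channel partner, stood at 62.3, 76.4 and 77.3 CPM in the EtOH control, 60.7, 71.8 and 75.2 in the KO, and 57.4, 67.3 and 70.0 in the 4OHT control and passed with the block against the EtOH control (-0.15, edgeR adjusted p = 0.0359). The paralogue *Timm17b* was not called, at 0.05 and -0.02. *Timm50* went the other way from *Timm22*, *Timm23* and *Timm17a*. It stood at 54.1, 54.1 and 54.8 CPM in the EtOH control, 51.2, 52.6 and 52.3 in the KO, and 64.9, 61.9 and 55.4 in the 4OHT control. It was highest in the 4OHT control, and with the block it was lower in the KO than there (-0.22, edgeR adjusted p = 0.00887).

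In the import motor *Dnajc19*, a J-protein, stood at 28.2, 31.3 and 33.6 CPM in the EtOH control, 27.3, 33.0 and 33.9 in the KO, and 23.7, 27.8 and 27.8 in the 4OHT control and *Pam16*, its partner, at 15.4, 15.4 and 14.7 CPM in the EtOH control, 17.4, 15.6 and 17.5 in the KO, and 14.6, 13.7 and 14.2 in the 4OHT control. With the block *Dnajc19* was lower in the 4OHT control (-0.23, edgeR adjusted p = 0.0111) and higher in the KO than there (0.25, edgeR adjusted p = 0.00713), and *Pam16* passed in the latter comparison (0.25, edgeR adjusted p = 0.0314). *Timm44*, which tethers the motor to the channel, and *Grpel1*, the nucleotide exchange factor of mitochondrial Hsp70, were not called. *Chchd4*, the oxidoreductase of the disulfide relay, stood at 46.9, 57.7 and 54.9 CPM in the EtOH control, 48.3, 56.8 and 59.5 in the KO, and 43.4, 44.6 and 52.2 in the 4OHT control, and with the block was lower in the 4OHT control (-0.19, edgeR adjusted p = 0.0278) and higher in the KO than there (0.23, edgeR adjusted p = 0.00776). *Gfer*, the oxidase that recharges it, and the SAM genes *Samm50*, *Mtx1* and *Mtx2* were not called in any of these fits.

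**Figure D5:**
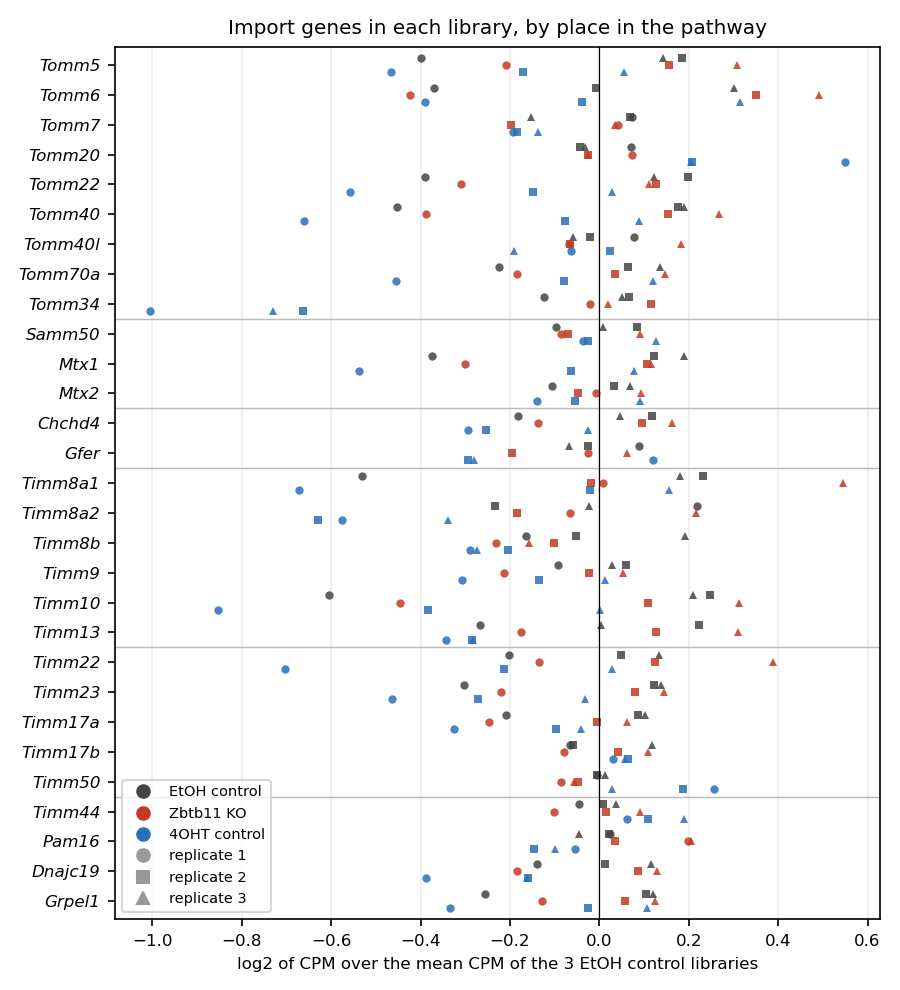
Level of the 29 tested import genes in each library, as log2 of CPM over the mean of the 3 EtOH control libraries, grouped as TOM, SAM, disulfide relay, small TIM chaperones, inner membrane translocases and import motor. Circles are replicate 1, and in 20 of the genes replicate 1 is the lowest library in all 3 groups. The replicate 1 point of *Tomm34* in the 4OHT control is the farthest to the left.

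The import genes also differed between replicate numbers. Replicate 1 was below replicates 2 and 3 in all 3 groups for 20 of 29 members, against 29.4% of tested genes, and above them for 1 member, *Tomm20*. The log2 ratio of replicate 1 to the mean of the other 2 was -0.64, -0.60 and -0.67 for *Tomm40* and -0.83, -0.66 and -0.67 for *Timm10* in the EtOH control, the KO and the 4OHT control. For *Tomm20* it was 0.11, 0.10 and 0.34. Replicate 1 was also the smallest library of each group, and the share of counts on members was lowest in it (0.173, 0.18 and 0.163% against 0.178 to 0.21% in the other libraries), with the part of depth in this not tested.

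Beyond the members, 19 of 20 further genes of import and of protein handling behind it were matched by symbol and tested. This list was chosen with earlier results of these data known. Of the 19, 1 was called in the KO against the EtOH control, beside 0.899% of all tested genes. *Agk*, a lipid kinase that is also a subunit of the TIM22 translocase, stood at 17.3, 19.9 and 22.1 CPM in the EtOH control, 5.59, 8.73 and 8.54 in the KO, and 19.6, 26.0 and 24.9 in the 4OHT control. The KO libraries did not overlap the others, and the log2 fold change was -1.37 (SE 0.191, edgeR adjusted p = 0.00772) against the EtOH control and -1.62 (SE 0.192, edgeR adjusted p = 0.00133) against the 4OHT control. *Agk* had a promoter window with mean antibody coverage of 647, rank 279 of 7500, somewhat below the 697 of *Timm9*. *Timm22*, the pore of the same translocase, had no consensus window and a log2 fold change of 0.14 (SE 0.197) in the KO. The full Zbtb11 peak list did hold a peak at its promoter, and the FLAG-Zbtb11 list did not. *Grpel2*, a paralogue of *Grpel1*, was the only other gene of the list with a window above the limit, at 519. It stood at 46.2, 40.0 and 36.9 CPM in the EtOH control and 39.7, 33.6 and 32.1 in the KO. Its log2 fold change against the EtOH control, -0.23, was not called. With the block it was called lower in the KO than in the 4OHT control (-0.20, edgeR adjusted p = 0.0211). *Mtch1*, an outer membrane protein of the carrier family, stood at 52.2, 56.6 and 54.6 CPM in the EtOH control, 53.2, 53.0 and 56.9 in the KO, and 89.1, 78.1 and 78.8 in the 4OHT control. It was higher in the 4OHT control (0.59, SE 0.0808, edgeR adjusted p = 0.00643) and lower in the KO than there (-0.59, SE 0.0809, edgeR adjusted p = 0.00285). In the 4OHT control against the EtOH control 1 of 19 was higher and none lower, and in the KO against the 4OHT control 2 of 19 were lower and none higher, beside 4.06% and 6.45% of all tested genes called. With the block 7 and 9 of 19 were called in these comparisons, against 33.6% and 34.9% of tested genes. *Agk* alone was called with the block in the KO against the EtOH control, against 2.25%.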

How the data were processed

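Read counts per gene for 9 RNA-seq libraries were deposited by the authors (GENCODE vM1 annotation, mm9, replicates not pooled); the strand setting of the counting is not given in the sources used here. The unassigned rows (25.3 to 31.6% without a feature) were left out. Coverage of 7500 consensus windows was deposited as normalised signal for 4 antibody and 3 FLAG libraries, made by the authors with DiffBind, and peak lists as positions only. The authors' mean columns and the ChIP inputs were not used.

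Counts were tested with edgeR 4.0.16 (R 4.3.3; quasi-likelihood F test, TMM scaling, all 9 libraries in 1 fit, genes above 1 CPM in at least 3 libraries, Benjamini-Hochberg adjustment over all 14346 tested genes, threshold 0.05). The script was tested on simulated data, which held no effect of the replicate number and so cannot show how the fits behave with one. Alternatives were DESeq2 1.42.0, other scalings, filters and sample sets, the replicate number as a block, and fits without each replicate. Deviations from group means correlated at 0.43 to 0.82 between libraries of the same number and at -0.753 to 0.526 between others. The negative values were all between replicate 1 and another number, and numbers 2 and 3 were less clearly separate. The numbers were still taken to pair the samples, and the values with the block rest on this. The study's methods call the replicates biological, and what the shared numbers stand for is not given in the sources used here. The methods also report 1 replicate as distant from the others in every sample group, and propose technical variability as a possible reason. The study left that replicate out for its final gene list. Its number is not stated, so all 3 replicates were kept in the main fit here. Members and lists were chosen with earlier results of these data known. Values per library are given for members called by group or with the block, with a promoter window, or with the largest changes.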

Additional observations from a re-analysis of the deposited data

How the results depend on the processing

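No import gene was called in the KO against the EtOH control under any alternative. Members called in the 4OHT control against the EtOH control and in the KO against the 4OHT control numbered 1 and 1 as reported, 2 and 2 with DESeq2 (8.27% and 10.2% of all tested genes), 14 and 14 with the replicate block (33.6% and 34.9%), and 12 and 11 with the block on replicates 2 and 3 only (27.6% and 29.5%). With 1 replicate number left out of all groups they numbered 4 and 4 without replicate 1 (17.1% and 18.7%), and 0 and 0 without replicate 2 (0.0896% and 0.565%) or replicate 3 (0.165% and 0.785%), where the fold change of *Tomm34* did not shrink. With any single library left out they stayed at 1 and 1. The members' median log2 fold change ranged, with a single library left out, from -0.0626 to 0.0882 (KO against EtOH control), -0.25 to -0.0571 (4OHT control against EtOH control) and 0.0715 to 0.26 (KO against 4OHT control). With a replicate number left out of all groups it ranged from 0.00643 to 0.0374, -0.18 to -0.11 and 0.15 to 0.20. With FLAG coverage in place of the antibody, the median of the member windows was 120 and 1 lay above the limit, and the FLAG peak list held 16 members. No called value of a member reversed, and the causes were not tested. Depth limits *Timm8a2* and *Tomm6* most, with 28 to 67 and 33 to 84 counts per library.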
